A study of Homo sapiens with 2 samples.

Results

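Genes of naive pluripotency and of signalling by leukaemia inhibitory factor (LIF) and interleukin 6 (IL6) were followed in the established line of human embryonic stem cells HES2. They were DPPA3, ZFP42, ALPPL2, ALPP, BCL6, BCL3, CNTFR and IL6R, taken by gene symbol, and made up 8 of the 425 rows of the authors' deposited table. The genes were chosen because of the values described here: all 8 were known to be lower in the PB-Tfcp2l1ΔCP2 library, so their direction is a description and was not tested. All 8 had an expression value of 1 or more in at least 1 library.

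The study set HES2 cells that expressed PB, the control, beside HES2 cells that expressed PB-Tfcp2l1ΔCP2, to find genes regulated by this form of Tfcp2l1. By its name, the form lacks a part called CP2. The labels spell out neither PB nor the species of the insert, and do not say whether the cells were 1 clone or a pool. Both cultures received FGF2 (10 ng/ml) and Activin A (10 ng/ml) in a basal medium with 10% KSR over 2 passages, with no other difference named. Each group was 1 library, so no spread between cultures is known and no value below has a replicate check.

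Pluripotent cells exist in a naive state, close to the preimplantation epiblast, and in a primed state, close to the postimplantation epiblast, in which conventional human lines such as HES2 are kept. Some cytokines of this family, IL6 among them but not LIF, first bind a specific receptor subunit, such as CNTFR or IL6R. LIF, IL6 and their relatives signal through the shared subunit IL6ST, often with LIFR, to JAK kinases and the transcription factor STAT3. In mouse embryonic stem cells this pathway sustains the naive state, and TFCP2L1, a factor of the CP2/grainyhead family, is a STAT3 target there.

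TFCP2L1 had 0 rows among those used here, so the expressed construct could not be checked against the labels. None of 16 core pluripotency genes, POU5F1, SOX2 and NANOG among them, had a row, so the cell type could not be checked either. The table lists only genes at least 2-fold apart (smallest absolute log2 fold change 1.0, largest FDR 0.000984), and genes not listed were not analysed here. Read numbers were recovered from the deposited p-values, and the ratio of library totals, PB-Tfcp2l1ΔCP2 over PB, came out at 1.02. In bulk RNA, fewer cells of a type and less RNA per cell cannot be told apart.

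Sequences around the transcription starts are shown first. The 2 motifs marked in them were chosen after the files were seen. One or the other is held by 4 of the 8 genes, among them the copies ALPP and ALPPL2, so these matches are not all separate. The share of all promoters with either motif was not counted, and nothing is read from the 4 of 8. One motif is tied to the pathway and the other to the CP2 family, which includes TFCP2L1. The expressed form, by its name, lacks a part called CP2, and whether it can bind the family's motif was not tested. RefSeq promoters (GRCh38.p14, 250 bases before to 50 after a start) were matched for all 8 genes, 9 promoters in all, since BCL6 has more than 1. RefSeq names ALPPL2 by its current symbol, ALPG. In the promoters of ZFP42, ALPP and ALPPL2 the letters CCAGNNNNNNCCAG, a strict form of the CP2-family motif, occurred once each, on the strand shown. The capitals mark that motif in the 250 bases before the start of ZFP42 (chr4:187995521-187995770, plus strand), ALPP (chr2:232378501-232378750, plus strand) and ALPPL2 (chr2:232406594-232406843, plus strand).
ZFP42: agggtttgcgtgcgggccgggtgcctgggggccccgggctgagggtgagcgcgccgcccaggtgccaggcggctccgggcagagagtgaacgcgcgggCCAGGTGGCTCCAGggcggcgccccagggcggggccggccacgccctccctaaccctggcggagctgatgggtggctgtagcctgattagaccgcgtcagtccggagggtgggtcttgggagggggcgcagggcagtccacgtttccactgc
ALPP: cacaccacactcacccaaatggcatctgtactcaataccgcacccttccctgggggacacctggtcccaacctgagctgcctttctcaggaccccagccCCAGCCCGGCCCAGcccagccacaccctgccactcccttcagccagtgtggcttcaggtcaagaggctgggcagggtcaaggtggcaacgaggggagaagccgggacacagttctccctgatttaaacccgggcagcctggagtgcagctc
ALPPL2: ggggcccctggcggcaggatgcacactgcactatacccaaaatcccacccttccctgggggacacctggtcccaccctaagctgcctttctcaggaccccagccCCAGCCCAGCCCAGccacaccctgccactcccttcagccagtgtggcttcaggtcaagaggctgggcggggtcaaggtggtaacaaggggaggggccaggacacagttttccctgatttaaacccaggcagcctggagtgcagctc

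The same letters, searched on both strands, were found in 4.04% of 35116 RefSeq promoters of the same length. ALPP and ALPPL2 are copies, and their promoters were 82.7% identical over 307 aligned columns, so their matches are not separate. A degenerate CP2 motif was found in 60.3% of all promoters and in 7 of the 9. No binding was measured, and a match is a description of the letters only.

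BCL6 is shown for another motif, TTCNNNGAA, which reads the same on both strands and is the core recognised by STAT3 and other STAT factors. One BCL6 promoter (chr3:187745419-187745718, minus strand) held 4 copies. The capitals in the 250 bases before its start (chr3:187745469-187745718, minus strand) mark the first copy and the part of the second that lies before the start.
BCL6: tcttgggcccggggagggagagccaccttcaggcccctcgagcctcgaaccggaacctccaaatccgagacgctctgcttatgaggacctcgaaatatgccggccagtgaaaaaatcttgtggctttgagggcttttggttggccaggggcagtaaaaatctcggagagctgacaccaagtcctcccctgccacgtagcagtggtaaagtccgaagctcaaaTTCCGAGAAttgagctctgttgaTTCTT

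The 4 copies, each in capitals with 5 bases on either side, ran from 28 bases before the start to 45 after it.
BCL6 copy at -28 to -20: tcaaaTTCCGAGAAttgag
BCL6 copy at -5 to 4: gttgaTTCTTAGAActggg
BCL6 copy at 11 to 19: tggggTTCTTAGAAgtggt
BCL6 copy at 37 to 45: gaagtTTCTAGGAAaggcc

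Of all 35116 promoters 7.66% held TTCNNNGAA at least once. The limit of 4 copies equals the count in the BCL6 promoter. That promoter was among the 7 (0.0199%) with 4 copies or more, so nothing is read from this share. No other promoter of the 8 genes held it. The shorter spacing TTCNNGAA occurred in 7.74% of all promoters and in 2 of the 9, the other BCL6 promoter and that of IL6R. The 9 promoters differed widely in composition, from a GC content of 38.3% with 6 CpG dinucleotides for DPPA3 to 80.0% with 35 for BCL3, against a median of 58.7% and 14 over all promoters.

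All 8 genes were lower in the PB-Tfcp2l1ΔCP2 library, by 2.08-fold (IL6R) to 4.10-fold (BCL6) in the deposited values. Of all rows 52.7% were lower, and since these genes were chosen on this contrast nothing is read from their count. Values ran from 22.0 to 0.56 across the 8 genes and both libraries. Their unit is named only as expression. Recovered reads per unit of value and kilobase of gene length were 21.9 to 23.3 in the PB library and 22.2 to 24.1 in the other for the 8 genes, which differ in length from 1079 to 5648 bases, so the values behave as per-length levels and are compared between genes on that footing.

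**Figure D1:**
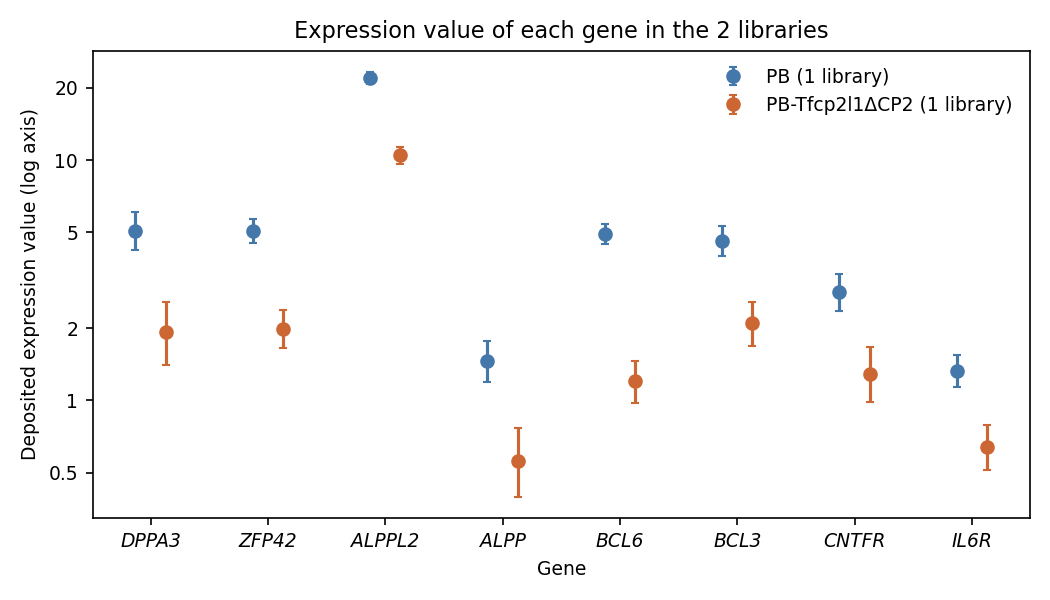
Deposited expression value (log axis) of each of the 8 genes in the PB library (blue) and the PB-Tfcp2l1ΔCP2 library (orange), 1 library each; bars are exact Poisson 95% intervals of the recovered reads and cover counting error only. For every gene the orange point and its bar lie below the blue ones.

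DPPA3 (Gene ID 359787) encodes a maternal and germline factor, also called STELLA, that guards DNA methylation in the early embryo. Its value was 5.08 in the PB library and 1.92 in the PB-Tfcp2l1ΔCP2 library, on 120 and 46 recovered reads. The value was thus 62.2% lower, and by reads the fold was 2.67 (95% counting interval 1.88 to 3.83).

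ZFP42 (Gene ID 132625), the zinc finger factor REX1, is a widely used marker of undifferentiated cells. It had the same control value as DPPA3, 5.08, and was at 1.99 in the PB-Tfcp2l1ΔCP2 library. Its transcript model is longer, so that it rested on 312 and 126 reads, and the interval around its 2.53-fold difference was narrower, from 2.05 to 3.14. The counting intervals of the values of DPPA3 and ZFP42 overlapped in both libraries.

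ALPPL2 and ALPP encode the germ-cell and placental alkaline phosphatases, membrane-anchored enzymes; ALPPL2 is a surface marker of naive human pluripotent cells. ALPPL2 (Gene ID 251) was the highest of the 8 genes in both libraries, at 22.0 in PB and 10.5 in PB-Tfcp2l1ΔCP2, on 1278 and 622 reads. Its fold was 2.10 (1.91 to 2.32), the best determined of the 8. ALPP (Gene ID 250) was at 1.46 and 0.56, on 100 and 39 reads, a fold of 2.62 (1.79 to 3.90).

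How reads were divided between these copies is not given in the sources used here. In GENCODE release 29 their coding sequences, 1608 and 1599 bases, were 97.3% identical over 1608 aligned columns, with 35 mismatches and 9 gap columns. Of the 50-base windows of the ALPP transcript 24.5% occurred unchanged in the ALPPL2 transcript, and of the 100-base windows 13.2%. For the ALPPL2 transcript the shares found in ALPP were 29.3% and 15.8%. The ALPPL2 value was 15.1 times that of ALPP in PB and 18.7 times in PB-Tfcp2l1ΔCP2. Whether reads of ALPPL2 were counted for ALPP was not tested, so the value and fold of ALPP alone are uncertain beyond their counting intervals.

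**Figure D2:**
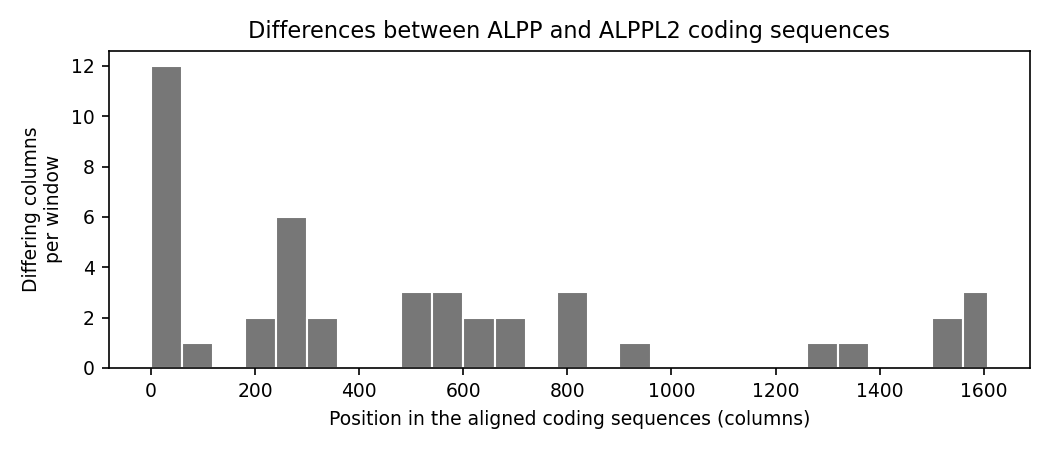
Number of differing columns, mismatches and gaps, in successive windows of 60 columns (the last is shorter) along the aligned ALPP and ALPPL2 coding sequences. Differences gather near the 5' end, with 12 columns in the first window, and the windows from column 961 to 1260 hold 0.

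As 1 measurement the summed value of ALPP and ALPPL2 was 23.47 in PB and 11.04 in PB-Tfcp2l1ΔCP2. The summed reads, 1378 and 661, gave a fold of 2.13 (1.94 to 2.34), close to that of ALPPL2 alone. ALPP held 7.26% of the pair's reads in PB (Wilson 95% interval 6.0 to 8.75%) and 5.90% in PB-Tfcp2l1ΔCP2 (4.35 to 7.96%). These intervals overlap, but overlap is no test of a difference, and a change in the division between the copies was not tested. In the order along chromosome 2 the copies lie 2 places apart, and no other listed gene lay within 10 places of any of the 8 genes.

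BCL6 (Gene ID 604) encodes a zinc finger repressor known from germinal centre B cells. It was at 4.92 in PB and 1.20 in PB-Tfcp2l1ΔCP2, on 414 and 103 reads. Its fold, 4.11 (3.31 to 5.15), was the largest of the 8, and its interval lay wholly above those of ZFP42, ALPPL2, BCL3, CNTFR and IL6R, while it overlapped those of DPPA3 and ALPP. BCL6 was also the gene whose promoter carried the 4 TTCNNNGAA copies shown above; 1 gene allows no relation between them to be drawn.

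BCL3 (Gene ID 602), an IkappaB-family protein that acts in the nucleus with NF-kappaB subunits, was at 4.60 and 2.10, on 195 and 91 reads. The fold was 2.19 (1.70 to 2.84), below that of BCL6 although both began from like control values. Both genes are known to respond to STAT3 in various cells.

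CNTFR (Gene ID 1271) encodes the subunit that binds ciliary neurotrophic factor. It was at 2.83 in PB and 1.29 in PB-Tfcp2l1ΔCP2, on 128 and 59 reads, a fold of 2.22 (1.62 to 3.07). IL6R (Gene ID 3570), which binds IL6, was at 1.33 and 0.64, on 171 and 87 reads, a fold of 2.01 (1.54 to 2.63). Of the 8 genes IL6R lay nearest to the 2-fold limit of the table, followed by ALPPL2.

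**Figure D3:**
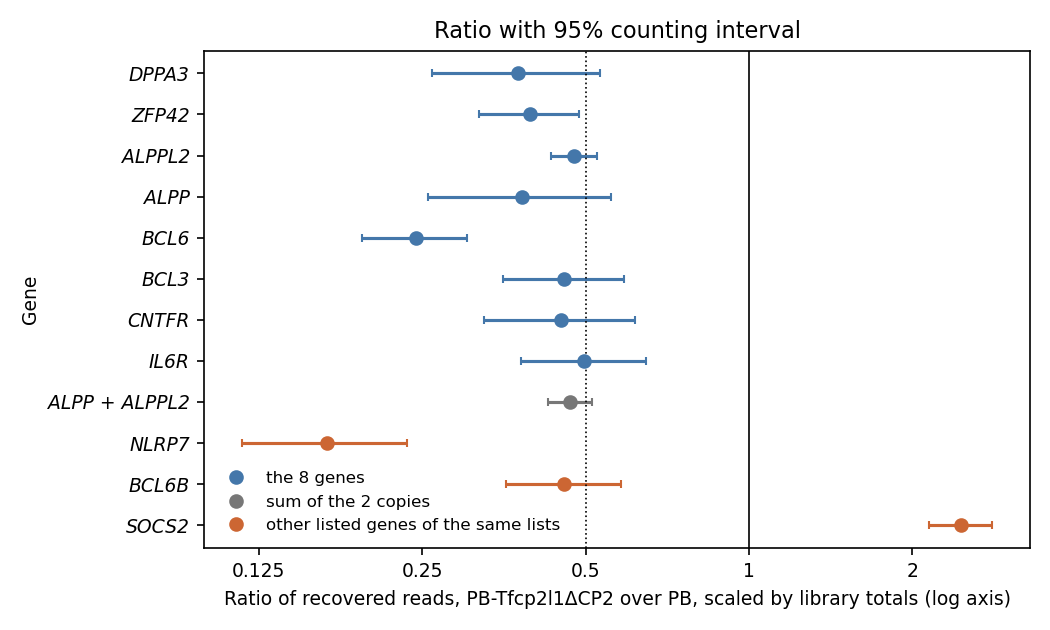
Ratio of recovered reads, PB-Tfcp2l1ΔCP2 over PB, scaled by the library totals (log axis), with exact conditional 95% counting intervals for the 8 genes (blue), the sum of ALPP and ALPPL2 (grey) and 3 other listed genes of the same lists (orange). The solid line marks equal levels and the dotted line a ratio of 0.5. Only SOCS2 lies to the right of the solid line, and among the 8 genes only BCL6 and ZFP42 have a bar wholly to the left of the dotted line.

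All 8 intervals excluded equality between the libraries, also at the 99% level, as the thresholds of the table all but ensure. Against the limit of 2-fold the depth decided less: 2 of 8 intervals, those of BCL6 and ZFP42, lay wholly above a 2-fold lower level. Of the 396 rows with 1 recovered read pair 78 (19.7%) did so. The 396 include rows that were higher, which could not be counted, so the share among lower rows alone is larger. All 78 are among the 224 lower rows, and nothing is read from the 2 of 8. The other 6 included 2-fold. The intervals treat reads as independent molecules and leave out the spread between cultures.

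By level the PB library had ALPPL2 first. DPPA3, ZFP42, BCL6 and BCL3 followed within overlapping counting intervals, from 3.98 to 6.07 in all. CNTFR came next (2.36 to 3.36), apart from its neighbours, and then ALPP and IL6R, which overlapped. In the PB-Tfcp2l1ΔCP2 library ALPPL2 was again first, and BCL6 moved from place 4 to place 6. Its interval there, 0.979 to 1.46, lay below those of BCL3 (1.69 to 2.58) and ZFP42 (1.66 to 2.37), overlapped that of DPPA3 (1.41 to 2.56) and covered the level of CNTFR. IL6R and ALPP were last in both libraries and below 1 in the PB-Tfcp2l1ΔCP2 library.

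Summed over the 8 genes, the value was 47.3 in PB and 20.2 in PB-Tfcp2l1ΔCP2, of which ALPPL2 made up 46.5% and 51.9%. Without ALPPL2 the sums were 25.3 and 9.70. Lower sums follow from the choice of the genes.

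A pseudocount of 1 reduces the difference of genes with low values. On the log2(value + 1) scale the 8 genes ran from -1.43 for BCL6 to -0.51 for IL6R, with a median of -0.93. The differences were -1.06 for DPPA3, -1.02 for ZFP42, -1.003 for ALPPL2, -0.85 for BCL3, -0.74 for CNTFR and -0.66 for ALPP, and -1.02 for the sum of ALPP and ALPPL2. In all, 4 of 8 were at least 2-fold lower on this scale, against 16.8% of the 291 rows with a value of 1 or more and 49 of the 170 lower ones. The median of all 425 rows was -0.36, and that of the lower rows with a value of 1 or more was -0.85, near the median of the 8 genes. Among the 224 lower rows ordered by ratio, BCL6 held rank 48, DPPA3 rank 99, ALPP 104, ZFP42 109, CNTFR 173, BCL3 176, ALPPL2 193 and IL6R 201; none was among the 15 lowest ratios.

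**Figure D4:**
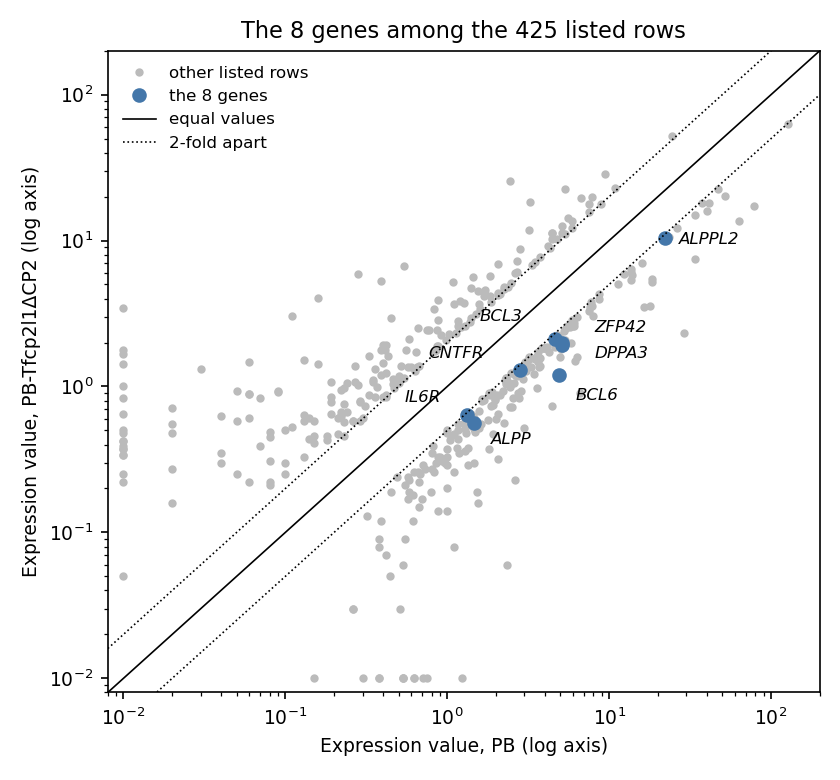
Expression value of the 425 listed rows in the PB library (x, log axis) and the PB-Tfcp2l1ΔCP2 library (y, log axis), with the 8 genes in blue; the solid line marks equal values and the dotted lines 2-fold differences. The empty band between the dotted lines is the table's own threshold, and IL6R, ALPPL2, BCL3 and CNTFR lie close to its lower edge while BCL6 lies farther out.

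By the deposited p-values, which compare reads of 2 libraries and not conditions, the order was another one. The ratio of FDR to p-value gives each gene's rank among 18250 tested genes. ALPPL2, with the most reads, held rank 169, BCL6 213, ZFP42 630, BCL3 1474, DPPA3 1727, IL6R 2040, ALPP 2095 and CNTFR 2190. Of the 8 genes ALPPL2 was thus first by p-value, while only IL6R had a smaller fold.

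Other genes of the same pathways were taken from 11 lists of 120 genes, chosen with earlier results of these data known. Besides the 8 genes, 3 had a row. In the naive pluripotency list 5 of 22 genes had a row. They were the 4 described, chosen as lower, and NLRP7 (Gene ID 199713), a maternal-effect gene expressed in oocytes and early embryos. NLRP7 was lower, as were 52.7% of all rows, at 2.99 in PB and 0.52 in PB-Tfcp2l1ΔCP2, on 234 and 40 reads, a fold of 5.98 (4.26 to 8.59). Of 8 IL6-family receptor genes taken for this list, only CNTFR and IL6R, chosen as lower, were listed.

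Of 17 STAT3-responsive genes 3 were listed, and they did not go one way. BCL6 and BCL3 were lower, while SOCS2 (Gene ID 8835), a feedback inhibitor of JAK/STAT signalling, was higher, at 5.13 in PB and 12.7 in PB-Tfcp2l1ΔCP2, on 313 and 786 reads, or 2.46-fold (2.15 to 2.81). SOCS2 is best known as a target of STAT5, and which STAT factor, if any, acted on these 3 genes was not tested. BCL6B (Gene ID 255877), the close relative of BCL6, was lower, at 2.63 and 1.20, on 216 and 101 reads, a fold of 2.19 (1.72 to 2.799). With BCL6 it made up the 2 listed of 9 BCL6 relatives and corepressors. Of 11 NF-kappaB and IkappaB genes only BCL3 was listed, of 12 DPPA and DNA methylation factors only DPPA3, and of 4 alkaline phosphatases ALPP and ALPPL2.

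No row was present for any of 16 primed pluripotency genes, 8 IL6-family ligands or 10 JAK/STAT signal transducers, so LIF, IL6ST, LIFR, JAK1 and STAT3 were not analysed here. Whether receptor and target genes were lower together with the shared subunit or with STAT3 itself cannot be read from these rows.

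Markers of other cell types also differed between the libraries. Of 12 endoderm markers 4 were listed and higher, with a summed value of 0.15 in PB and 2.42 in PB-Tfcp2l1ΔCP2. All 4 were below 1 in both libraries. FOXA2 was at 0.01 in PB, the lowest value of the table, which other rows share, and the others rested on 1, 3 and 5 reads there. Of 12 mesoderm markers 4 were listed and higher, with sums of 3.03 and 12.3, of which 1 gene made up 2.68 and 7.27. Of 14 trophoblast markers, cells in which ALPP is also expressed, none was listed. NCAM1, 1 of 12 neuroectoderm markers, was lower (2.32 and 1.07), as was COL1A1, 1 of 11 fibroblast markers (41.6 and 18.0). The part of these differences in the values of the 8 genes was not tested.

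The deposited annotation gave cytokine receptor activity to CNTFR and IL6R, among 3 rows with that term, which restates why they were chosen. Transcription factor activity was given to ZFP42, BCL6 and BCL3, among 23 rows, and anchorage in the membrane to ALPPL2 and CNTFR, among 5. ALPP carried no term in any of the 3 gene ontology columns although ALPPL2 did, so these counts depend on how the rows were annotated.

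The listed genes nearest to each of the 8 in level and difference were found by distance on the log2 values of the 2 libraries, which are only 2 points. ENTPD2 (5.10 and 1.90), an ectonucleotidase gene, was nearest to both DPPA3 (distance 0.016) and ZFP42 (0.067). CASZ1 (2.78 and 1.28) was nearest to CNTFR (0.028), VIPR1 (1.31 and 0.63) to IL6R (0.032), FUT11 (4.58 and 2.04) to BCL3 (0.042) and SCARF1 (1.42 and 0.58) to ALPP (0.065). ALPPL2 and BCL6 had no such close match: SEMA3F (26.2 and 12.2) lay 0.33 from ALPPL2, and HSPB2 (4.96 and 1.58) lay 0.40 from BCL6.

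**Figure D5:**
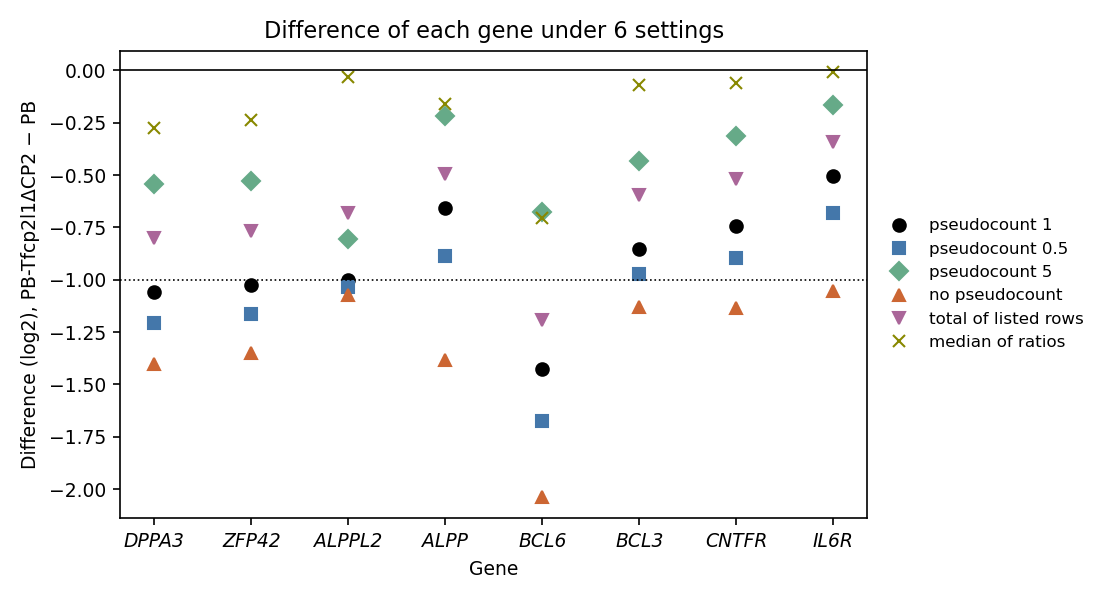
Difference of each of the 8 genes, PB-Tfcp2l1ΔCP2 minus PB, on the log2 scale with pseudocounts of 0.5, 1 and 5, with none, and with a pseudocount of 1 after either scaling on the listed rows. All points lie below 0; BCL6 is at -0.70 and IL6R at -0.0079 under median-of-ratios scaling.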

How the data were processed

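Total RNA of 2 HES2 cultures, 1 library per group, was sequenced on BGISEQ-500, per the labels' protocols. Per the submitters' processing notes, Bowtie 0.12.2 and hg19 took part, in an unstated role. For the gene counter, annotation, strand setting and test nothing is stated in the labels or the header.

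The authors' deposited table gives per gene a length in bases, an expression value in each library (a signal that is never negative, in an unnamed unit), a p-value, an FDR and a log2 fold change, which is the log2 of the value ratio with no pseudocount. The column of the PB-Tfcp2l1ΔCP2 library was matched by the word Tfcp2l1. Columns of other samples numbered 0.

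Whole reads were recovered from the p-values as the pair of counts that gives the deposited p under the 2-sided test of Audic and Claverie, to a relative tolerance of 5e-06. The search spanned 5 to 100 reads per unit and kilobase and allowed the read ratio to stray 7% from the value ratio. This left exactly 1 pair in 396 of 425 rows (93.2%), the 8 genes among them. For this comparison, simulated data with folds of 2.5 (100 genes) and 4 (99 genes) returned 100.0% of the pairs, with the same formula used to simulate and search. Folds are read ratios corrected for the library totals, and their intervals are exact conditional binomial ones. Differences use log2(value + 1), with no test, for rows with a value of 1 or more. Motifs were sought in RefSeq promoters (GRCh38.p14). Their coordinates are not those of hg19.

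The genes and lists were chosen with earlier results of these data known. Named genes are TFCP2L1, the 8 genes, listed genes of the lists, the nearest gene to each of the 8, and listed neighbours within 10 places; of the marker lists, the genes other than FOXA2, NCAM1 and COL1A1 are given as counts. Motifs were chosen after the files were seen. An item of the lists is not reported here. Python 3.11.15, numpy 2.4.6, scipy 1.17.1, pandas 2.3.3, biopython 1.88 and matplotlib 3.10.9 were used. Alternatives were pseudocounts of 0.5, 5 or none, 2 scalings, recovered reads, and 99% intervals.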

Additional observations from a re-analysis of the deposited data

How the results depend on the processing

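No paired analysis was possible because there was only 1 library for each group. All 8 genes were below 0 under both scalings, which is no check of their direction. The shift by the total, 0.34, was smaller than the limit of 1.0 at which rows were listed, so it could turn no sign. The median-of-ratios shift, 1.04, was itself set by rows selected at that limit. A pseudocount cannot turn a sign either. The recovered reads were sought near the value ratios, so those settings also say nothing of the direction. The median of -0.93 was -0.48 with a pseudocount of 5, -1.24 with none and -0.64 scaled to the total of the listed rows. It was -0.12 with median-of-ratios scaling and -1.25 on recovered reads. The recovered reads were also taken with no pseudocount, so their -1.25 is to be set beside the -1.24. Under the same settings, applied to the count after seeing the data, the 4 genes at least 2-fold lower became 0, 8, 1, 0 and 8. The summed ALPP and ALPPL2 difference of -1.02 was -0.83 with a pseudocount of 5, -0.70 with the total and -0.046 with median-of-ratios scaling. The median was -1.004 with a pseudocount of 0.5, -0.91 as a mean and -1.02 with the copies summed. Without a filter it stayed at -0.93, which was fixed in advance because all 8 genes pass the filter. The total and median-of-ratios scalings shift ratios upward by 0.34 and 1.04 on the log2 scale and rest on called genes only. No called gene lies within 2-fold, so by construction the median-of-ratios scaling brings genes near 2-fold to about 0 (IL6R at -0.0079, ALPPL2 at -0.030); with the total they were at -0.34 and -0.68. Both scalings are no check of depth, whose recovered ratio was 1.02. Depth limits ALPP and DPPA3 most, with 39 and 46 reads in the lower library.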
